A study of Homo sapiens with 4 samples.

Results

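The genes described here carry the nucleoside AICAR into the cell, phosphorylate it to ZMP and turn ZMP and its relatives over. They are 10 of the 19775 genes that had a probe set of their own on the array: the transporters SLC29A1 and SLC29A2, the kinase ADK, the purine synthesis enzymes ADSL and ATIC, the nucleotidases NT5C2 and NT5E, and the deaminases AMPD2, AMPD3 and ADA. They were chosen by name, and every probe set whose annotation lists exactly 1 of these symbols was taken, which gave 22 of 54613 probe sets. BT474, a long-established line of human breast carcinoma whose ERBB2 gene is amplified, was kept for 24 h in DMEM with 0.5 mM AICAR or in DMEM with vehicle. Both groups are the same line, the labels name no genetic change, and there were 2 arrays of total RNA per group, 4 in all. The comparison asked which transcripts differed after this AMPK activator.

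AICAR is a nucleoside that crosses the plasma membrane through equilibrative nucleoside transporters, the family of SLC29A1 and SLC29A2. Adenosine kinase then adds a phosphate, and the product, ZMP, resembles AMP closely enough to activate the energy sensor AMPK. ZMP is also a normal intermediate of purine synthesis: ADSL makes it and ATIC consumes it with a folate-bound formyl group, on the way to IMP. Nucleotidases can remove its phosphate, and AMP deaminases turn the related AMP into IMP.

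The arrays were alike in distribution, with medians of 6.39 and 6.37 (log2) with AICAR and of 6.37 and 6.37 with vehicle. Arrays of 1 group correlated at r = 0.997 over 54613 probe sets, and arrays of different groups at r = 0.994 to 0.995. All 10 luminal breast and ERBB2 amplicon markers lay above the bound used for dim genes, a log2 value of 6.11. One of them, the estrogen receptor ESR1, was lower with AICAR, at 10.40 against 10.71 with vehicle (limma adjusted p = 0.0411), a call lost in 9 of 13 alternatives, among them the mean of its probe sets (difference -0.04, adjusted p = 0.773) and each fit without 1 array (0.0749 to 0.237). Of 10 fibroblast, endothelial and blood markers, 9 were on the array and 5 lay above that bound. The blood marker PTPRC and the endothelial marker CDH5 lay below it, at 4.63 and 4.66 with AICAR and at 4.55 and 4.43 with vehicle. Other endothelial markers, PECAM1 and VWF, lay above it, at 7.14 and 6.85 with AICAR and at 7.32 and 6.94 with vehicle. So did the blood marker CD3E, at 6.24 with AICAR and 6.14 with vehicle. Of the 4 fibroblast markers, the collagen gene COL1A1 was at 9.38 with AICAR and at 10.02 with vehicle (limma adjusted p = 0.0209; 0.0868 and 0.110 without vehicle replicate 1 or 2, and 0.0727 with the mean of its probe sets). Among the other fibroblast markers, COL1A2 differed by 0.31 and COL3A1 by -0.0022, both dim and not tested, and PDGFRB by 0.01 (adjusted p = 0.944). Summed over the 9 markers on the linear scale, the level was 1273 and 1374 with AICAR and 1639 and 1745 with vehicle, and without COL1A1 it was 665 and 640 with AICAR and 648 and 664 with vehicle, overlapping groups; the part of these markers in the results was not tested. The labels do not say whether replicates are separate cultures, and the p-values therefore cover the spread of these samples alone, possibly a technical one.

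Of these genes, 1 was called in the fit over all genes, but not in every alternative tried. AMPD3, the AMP deaminase isoform named for erythrocytes, was 1.48-fold higher with AICAR, while none of the other 8 members tested passed the threshold in either direction. The transporters and the kinase had small negative differences, and ADSL, ATIC and NT5C2 small positive ones. In the fit over all genes (limma, Benjamini-Hochberg adjusted p under 0.05), 1 of 9 members tested rose and 0 fell; at an unadjusted p under 0.05 there were 2 higher and 0 lower, where 26.1% of all genes lay under that bound, 12.8% higher and 13.3% lower. Of all 13842 genes tested, 9.82% were called, made up of 4.63% higher and 5.19% lower, and 1 in 9 is near that background. The median difference of the 9 members was 0.02 (log2), and that of all genes tested was 0.01. The median absolute difference was 0.12 for the members and 0.11 for all genes. The calls were 641 higher and 718 lower, a split that quantile normalization moved to 855 higher and 625 lower. NT5E lay below the dim bound and was not tested in this fit.

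**Figure D1:**
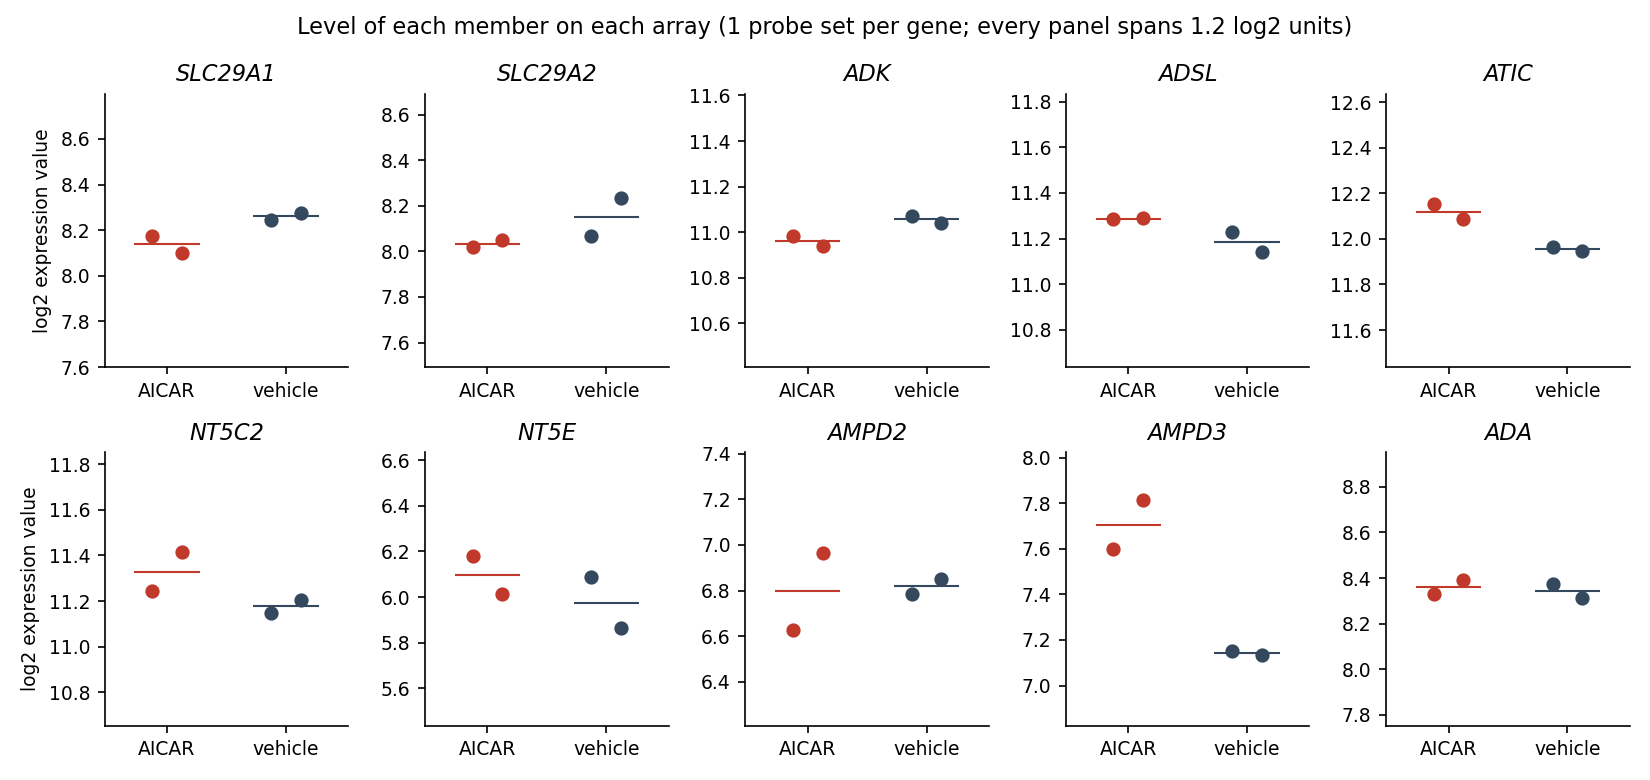
Log2 expression value (y axis) of each of the 10 genes on the 2 AICAR arrays (red, left) and the 2 vehicle arrays (dark, right), with the mean of each group as a line. Every panel spans the same log2 range, and AMPD3 shows the widest gap between groups, with AICAR arrays at 7.60 and 7.81 and vehicle arrays at 7.15 and 7.13.

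**Figure D2:**
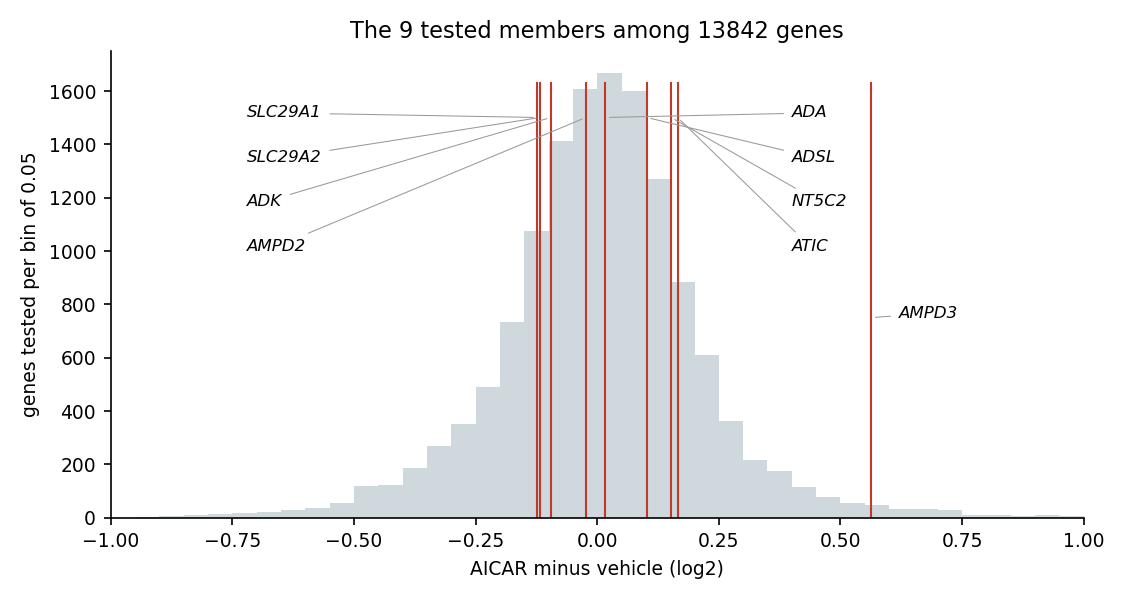
Number of genes (y axis) by the log2 difference AICAR minus vehicle (x axis, drawn from -1 to 1) for the 13842 genes tested, with the 9 tested members as red lines. AMPD3 stands at 0.56, and the other 8 lie between -0.12 and 0.17.

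AMP deaminases remove the amino group of AMP to give IMP and so lower the AMP that AMPK senses. AMPD3 (chromosome 11, 10450388 to 10507579, GRCh38.p14) is read by 1 probe set of its own, 207992_s_at. Its level was 7.60 and 7.81 (log2) on the AICAR arrays, against 7.15 and 7.13 on the vehicle arrays. Both AICAR arrays lay above both vehicle arrays, and the AICAR pair was the more spread, with a mean of 7.71 ± 0.15 (SD, n = 2) against 7.14 ± 0.01 for vehicle. The difference was 0.56 (log2, SE 0.0884, 95% confidence interval 0.35 to 0.78), and it passed over all genes tested (limma adjusted p = 0.0181). In RNA of a whole culture, more RNA per cell and more expressing cells cannot be told apart. It was the 204th largest rise, and 2.49% of the genes tested had a larger absolute difference. The direction held in every alternative tried, with differences of 0.46 to 0.67, but the call did not. In a fit over all 54613 probe sets, where no dim filter is applied, the limma adjusted p was 0.0531. The fit of 1 probe set per gene without that filter gave 0.0359. Without vehicle replicate 1 the difference was 0.57 and the adjusted p 0.0985, and without vehicle replicate 2 they were 0.55 and 0.0973. In those fits the lone vehicle array is assumed to vary like the AICAR pair. A further probe set, annotated to AMPD3 together with a second symbol and so outside the rule, differed by 0.17 (limma adjusted p = 0.413).

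**Figure D3:**
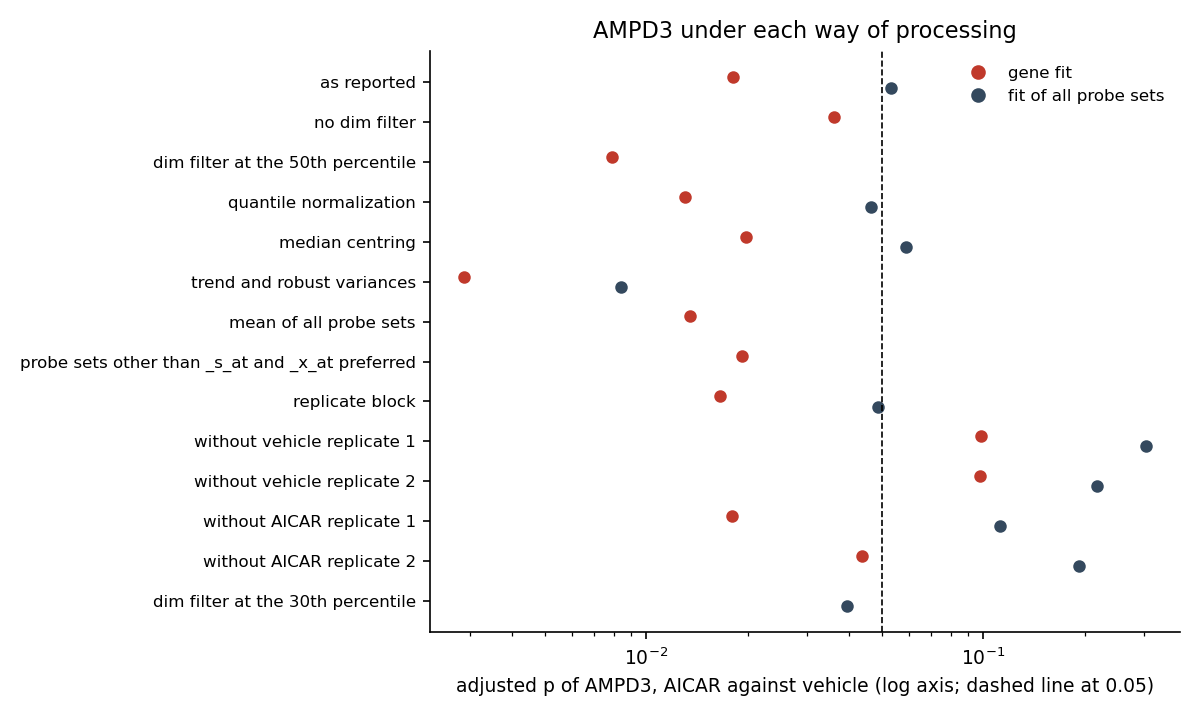
Adjusted p of AMPD3 (x axis, log scale) under each way of processing (rows), in the fit of 1 probe set per gene (red) and in the fit of all probe sets (dark), with 0.05 as a dashed line. The gene fit stays left of the line except without vehicle replicate 1 or 2, at 0.0985 and 0.0973, and the fit of all probe sets lies on both sides of it.

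The sequence before the starts of 2 of these genes is shown because AMPD3 was the member that rose and ATIC is the enzyme that consumes ZMP. The windows are the 250 bases before a gene start in RefSeq (GRCh38.p14), which lists 18 such windows for 8 of the 10 genes and 4 for AMPD3; the array does not tell which start was used. They were searched on both strands for AAGGTCA, the core bound by ERR receptors, which the series title names, for CACGTG, the E-box bound by MYC and its relatives, and for TGACTCA, the element bound by AP-1; the motifs do not overlap each other. The ERR core was in 0 of the 18 windows, against 3.44% of 35116 windows of all genes. The E-box was in 3, 1 each of SLC29A1, ATIC and AMPD2, against 6.34% of all windows. The AP-1 element was in 1 of the 18, a window of AMPD3, against 4.20% of all windows. That AMPD3 window lies inside the span of the gene, which begins at 10450388, so it precedes a later start than the first. Capitals mark the match, and a match is a description of the letters only.
AMPD3, chr11:10455014-10455263, plus strand: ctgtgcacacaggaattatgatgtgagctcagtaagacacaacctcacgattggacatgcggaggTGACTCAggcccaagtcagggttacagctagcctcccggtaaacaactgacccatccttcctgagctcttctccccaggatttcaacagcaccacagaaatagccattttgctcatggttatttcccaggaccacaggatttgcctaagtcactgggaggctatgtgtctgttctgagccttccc
ATIC, chr2:215311809-215312058, plus strand: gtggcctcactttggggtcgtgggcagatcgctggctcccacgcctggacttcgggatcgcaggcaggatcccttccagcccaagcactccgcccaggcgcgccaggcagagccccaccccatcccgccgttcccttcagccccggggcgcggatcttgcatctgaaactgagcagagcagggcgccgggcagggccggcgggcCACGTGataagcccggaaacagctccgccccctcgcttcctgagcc

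AMPD2 (chromosome 1, 109619837 to 109632055, GRCh38.p14 as for the genes that follow), the AMP deaminase isoform named for liver, did not follow AMPD3. Its single probe set read 6.63 and 6.96 (log2) with AICAR, against 6.79 and 6.85 with vehicle. The 2 AICAR arrays lay on either side of the vehicle arrays. The difference was -0.02 (SE 0.116, 95% confidence interval -0.30 to 0.26, limma adjusted p = 0.922), and without AICAR replicate 1 it was 0.14. No test of the difference between the deaminases was made. ADA (chromosome 20, 44619522 to 44651699), which deaminates adenosine to inosine, had its brighter probe set at 8.33 and 8.39 with AICAR and at 8.38 and 8.31 with vehicle. The groups overlapped, with a difference of 0.02 (limma adjusted p = 0.907) and an interval, as percent change, from -10.0% to 13.8%. Its other probe set differed by -0.03.

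The equilibrative transporters, through which AICAR enters, had negative differences that did not pass the test. SLC29A1 (ENT1, chromosome 6, 44219615 to 44234142) was at 8.17 and 8.10 (log2) on the AICAR arrays and at 8.24 and 8.28 on the vehicle arrays. Both AICAR values lay below both vehicle values, yet the difference of -0.12 did not pass (SE 0.0692, limma unadjusted p = 0.122, adjusted p = 0.317). The second SLC29A1 probe set had a difference of similar size, -0.08 (limma adjusted p = 0.691). Its groups were also apart, as were those of 46.9% of all probe sets. SLC29A2 (ENT2, chromosome 11, 66362521 to 66372446), its broad-range relative, was at 8.02 and 8.05 with AICAR, against 8.07 and 8.24 with vehicle, a difference of -0.12 (SE 0.0813, limma adjusted p = 0.412). Its 5 probe sets did not share a sign, ranging from -0.12 to 0.30, and their mean was 0.07. As percent change, the 95% confidence intervals ran from -18.2% to 3.07% for SLC29A1 and from -19.5% to 5.62% for SLC29A2.

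ADK (chromosome 10, 74151221 to 74709290), the kinase that makes ZMP from AICAR, was at 10.98 and 10.94 (log2) with AICAR and at 11.07 and 11.04 with vehicle. The AICAR arrays were lower, with means of 10.96 ± 0.03 and, for vehicle, 11.06 ± 0.02 (SD, n = 2 each). The difference of -0.10 did not pass (SE 0.0675, limma adjusted p = 0.421), and its interval ran from -16.4% to 4.76%. The other ADK probe set was far more spread, at 6.94 and 7.67 with AICAR and 7.36 and 7.68 with vehicle. It differed by -0.22, with a confidence interval of -0.76 to 0.33, and by 0.15 without AICAR replicate 1.

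On the synthesis side, both enzymes around ZMP had positive differences that missed the threshold. ATIC (chromosome 2, 215312059 to 215368592), which consumes ZMP, was at 12.15 and 12.09 (log2) with AICAR, against 11.96 and 11.95 with vehicle. The groups did not overlap, and the difference of 0.17 (SE 0.0682) had an unadjusted p of 0.0490 in limma and an adjusted p of 0.190. With a variance trend and robust variances it passed (limma adjusted p = 0.0339), a setting that called 8% of all genes higher and 9.82% lower; AMPD3 and ATIC were the members called in any alternative run. ADSL (chromosome 22, 40346500 to 40387527), which forms ZMP, was at 11.29 and 11.29 with AICAR and at 11.23 and 11.14 with vehicle, a difference of 0.10 (limma adjusted p = 0.409). The second ADSL probe set went the opposite way, at -0.03. The confidence intervals ran from 0.0682% to 25.6% for ATIC and from -4.53% to 20.6% for ADSL.

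The nucleotidases act on either side of the membrane. NT5C2 (chromosome 10, 103088017 to 103193272), the cytosolic enzyme that takes the phosphate off IMP and GMP, was at 11.25 and 11.41 (log2) with AICAR, against 11.15 and 11.21 with vehicle. The AICAR arrays were the higher, by 0.15 (SE 0.0821, limma adjusted p = 0.299). Its other probe set lay below the dim bound. NT5E (CD73, chromosome 6, 85450083 to 85495784), the surface enzyme that turns extracellular AMP into adenosine, had all 4 probe sets below that bound. The brightest of them was at 6.18 and 6.01 with AICAR and at 6.09 and 5.86 with vehicle, overlapping groups. Without the dim filter it differed by 0.12 (limma adjusted p = 0.591), and the 4 probe sets ranged from -0.09 to 0.30.

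Across the 22 probe sets of the members, 11 differences were positive and 11 negative. In the limma fit of all probe sets 0 of the 22 passed, and 1, that of AMPD3, passed with a trend and robust variances, where 2.64% of all were higher. Of all 54613 probe sets, 1.49% passed, 0.599% being higher and 0.888% lower. An unadjusted p under 0.05 was reached by 2 member probe sets, both higher, and by 16.1% of all, 6.92% being higher. The second of the 2 was the NT5E probe set 203939_at, at 4.83 and 4.66 (log2) with AICAR and 4.52 and 4.37 with vehicle (limma adjusted p = 0.223), a dim signal. The groups did not overlap for 7 of the 9 tested genes, 4 with AICAR above and 3 below, where 56.6% of all genes tested did not overlap (28.5% above and 28% below). For probe sets this was 11 of 22, against 46.9% of all.

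**Figure D4:**
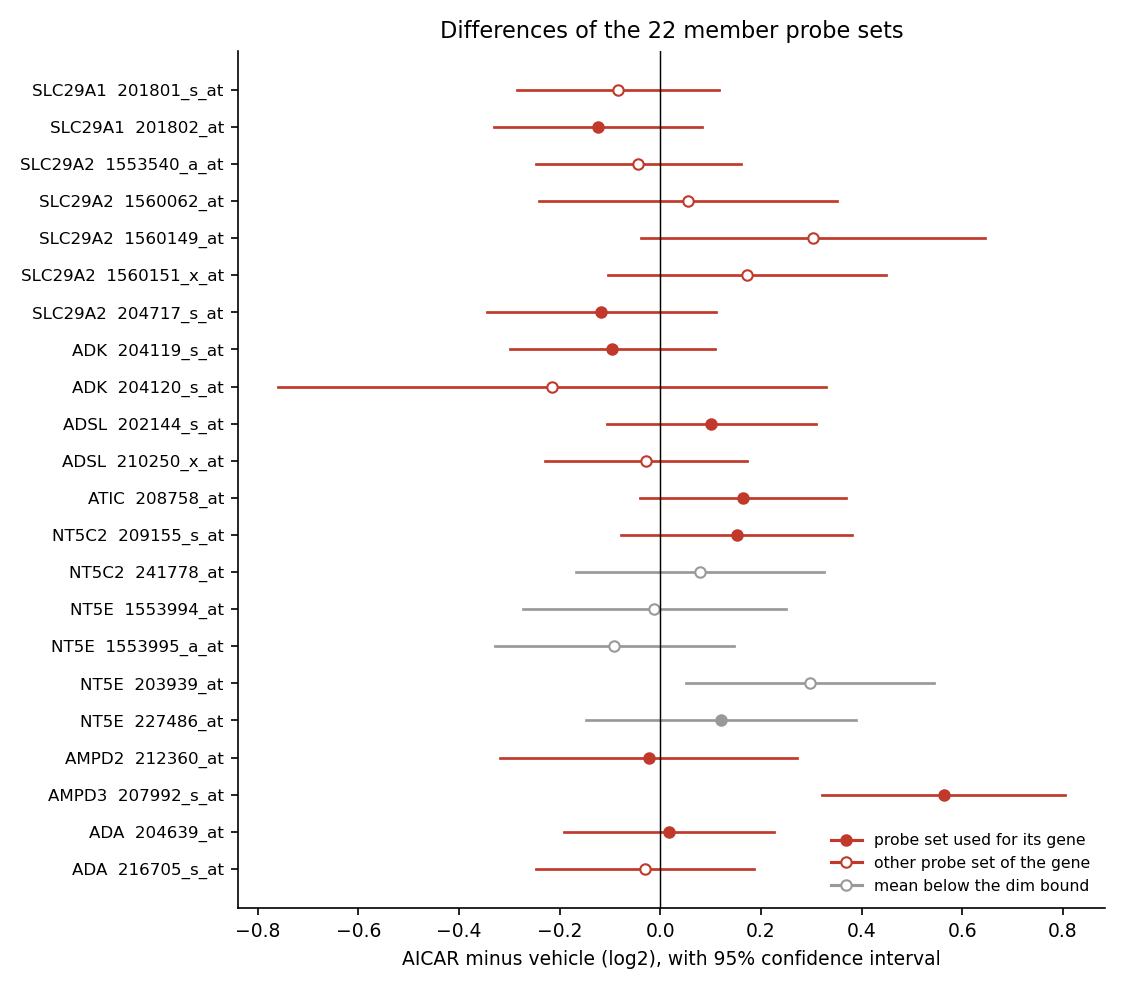
Log2 difference AICAR minus vehicle (x axis) with its 95% confidence interval for each of the 22 member probe sets (rows); filled points are the probe sets used for their genes, and grey marks means below the dim bound. The intervals are those of the fit of all probe sets, not of the fit of 1 probe set per gene. That of AMPD3 runs from 0.32 to 0.80 and that of NT5E 203939_at from 0.05 to 0.54, and the other 20 include 0.

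The neighbouring steps of the pathway were read from 5 lists of 47 further genes, of which 39 were on the array and 33 were tested. In them 1 gene rose and 1 fell, which is 6.06% of those tested, against the 9.82% called among all genes, and their median difference was -0.06 (log2). The 4 enzymes that precede ADSL in purine synthesis all had negative differences, where 47.6% of all genes tested did. Of the 4, 0 passed (limma). An unadjusted p under 0.05 was reached by 3, where 13.3% of all genes tested reached it with a negative difference. With a trend and robust variances 3 passed, against 9.82% of all genes lower, and where probe sets were averaged per gene 2 passed, against 5%. PPAT, which commits the pathway, was at 9.58 with AICAR and 9.82 with vehicle (difference -0.25, limma adjusted p = 0.105), and GART, which carries out 3 of the steps, differed by -0.20 (adjusted p = 0.147). PFAS and PAICS differed by -0.20 and -0.16. The list median of -0.20 lay opposite in sign to ATIC and to the ADSL probe set read for its gene, neither of which passed. The other ADSL probe set differed by -0.03. The contrast in sign within the pathway was not tested.

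Among 11 tested nucleotidases and ecto-nucleotidases other than the members, 0 fell and the median was 0.07 (log2). In this list 1 gene rose, where 4.63% of all genes tested did. It was ENTPD1 (CD39), the surface enzyme that degrades extracellular ATP to the AMP that NT5E uses. It was at 7.69 and 7.66 with AICAR, against 7.23 and 6.86 with vehicle. The groups were apart, and the difference was 0.62 (SE 0.122, limma adjusted p = 0.0290). Of its 4 probe sets, 3 differed by 0.44 to 0.63 and the dimmest by 0.09. None of the 4 passed in the fit of all probe sets (limma adjusted p = 0.0714 to 0.707). Only the probe set read for the gene, 209473_at, lay above the dim bound. Of those below it, 207691_x_at was at 5.97 with AICAR and 5.34 with vehicle, and 209474_s_at at 5.24 and 4.81. The call was lost without vehicle replicate 2 (adjusted p = 0.0973), without AICAR replicate 1 (0.0773), without AICAR replicate 2 (0.0759) and without the dim filter (0.0517). With the mean of its probe sets ENTPD1 lay under the dim bound.

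Among 12 tested enzymes of AMP, adenosine and inosine other than the members, 0 rose and 1 fell. Of all genes tested, 5.19% were called lower. In the list 11 differences were negative, against 47.6% of all genes tested, and the list median was -0.17 (log2). The one that fell was APRT, which salvages adenine into AMP. It was at 10.95 and 10.76 with AICAR, against 11.18 and 11.30 with vehicle. Its groups were apart, with a difference of -0.38 (SE 0.0895, limma adjusted p = 0.0480), and its other probe set differed by -0.30. This call lay at the threshold and was lost in 8 of 13 alternatives, among them the fits without vehicle replicate 1 (adjusted p = 0.144), without vehicle replicate 2 (0.217) and without AICAR replicate 2 (0.120). With a trend and robust variances 5 of the 12 were called lower, against 9.82% of all genes, and where probe sets were averaged per gene 0 were, against 5%.

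The 4 tested nucleoside carriers outside the members and the 2 tested adenosine receptors had 0 calls (limma) and 0 at an unadjusted p under 0.05. The concentrative carrier SLC28A1 differed by 0.16 (limma adjusted p = 0.238) and the monoamine and adenosine carrier SLC29A4 by 0.14 (adjusted p = 0.465). The receptors ADORA1 and ADORA3 differed by 0.14 (adjusted p = 0.557) and 0.10 (adjusted p = 0.412).

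**Figure D5:**
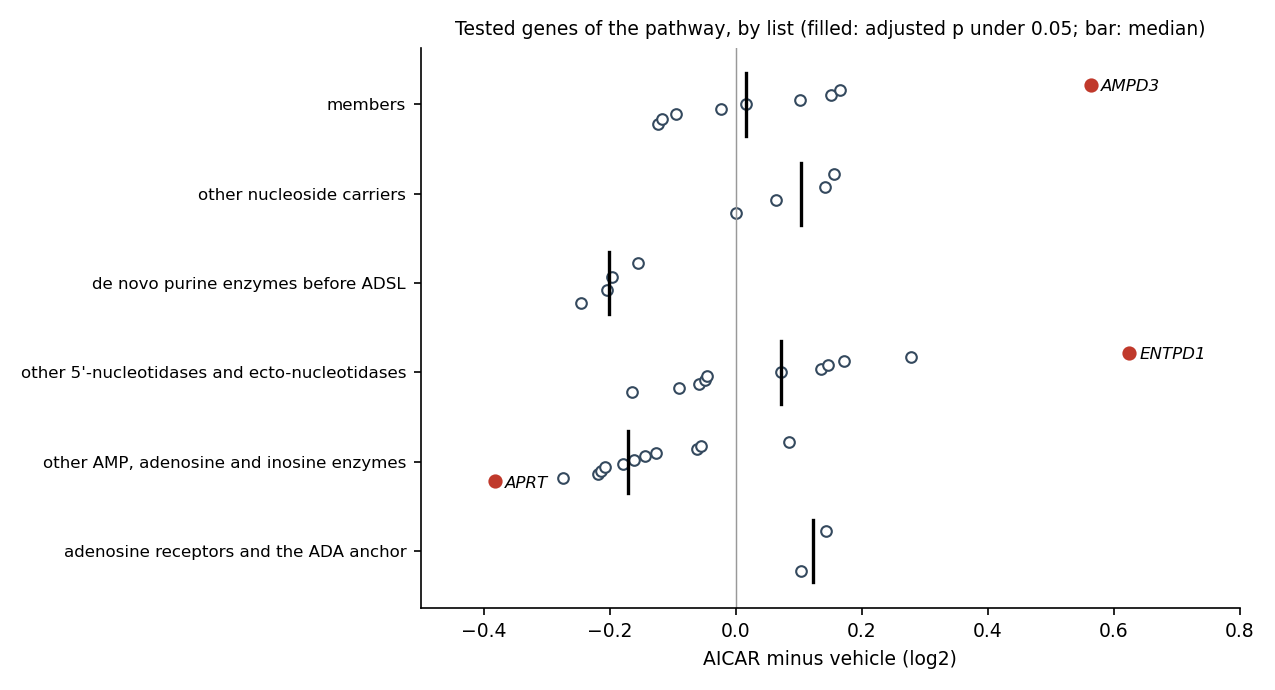
Log2 difference AICAR minus vehicle (x axis) of each tested gene in the member list and the 5 further lists (rows); filled points passed an adjusted p under 0.05 and the bar is the list median. AMPD3 and ENTPD1 stand alone on the right at 0.56 and 0.62, APRT is at -0.38, and the medians run from -0.20 to 0.12.

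The genes whose 4 array values, each centred on its own mean, lay nearest to those of AMPD3 were MND1, MBNL2 and ZBTB38, among the 13842 tested. Their Euclidean distances were 0.02, 0.04 and 0.04 (log2), and their differences were 0.56, 0.59 and 0.54. With 4 arrays in 2 groups, many genes share such a profile, so the likeness describes these arrays only.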

How the data were processed

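Total RNA of BT474 cells treated with AICAR or vehicle was labelled with biotin by an Affymetrix protocol, per the labels' protocols. The authors deposited log2 values per probe set, made with Affymetrix Expression Console per the submitters' processing notes; the version, summarization method and correction for background were not given in the sources used here, so differences of dim probe sets may be compressed. Groups came from the sample titles, and the values were used as deposited.

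Of 54675 probe sets, 62 controls were left out. The platform annotation gave 1 symbol to 41091 of the rest, several to 1801 and none to 11721. Symbols of 41037 were updated by Entrez ID through the RefSeq table of GRCh38.p14, which covers all 10 members. Each gene was read by its probe set with the highest mean, and 13842 genes were kept whose mean reached the 30th percentile over genes (log2 6.11). AICAR minus vehicle was estimated in limma 3.58.1 under R 4.3.3 (lmFit, then eBayes), two-sided, with Benjamini-Hochberg adjustment over all genes. A fit of all 54613 probe sets without a filter gave the values of single probe sets other than those read for a gene. The fit was tested on simulated data. An exact permutation test of 1 gene cannot go below p = 0.333 with 2 arrays per group, so none was used; the number of arrays limits the precision. The alternatives were other dim filters, quantile normalization, median centring, trend and robust variances, the mean of a gene's probe sets, avoiding probe sets whose IDs end in _s_at or _x_at, a threshold of 0.1, a block for the replicate number, and fits that omit 1 array.

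The members and lists were chosen with earlier results of these data known. The rule for other genes named from the lists took the called genes, or the 2 with the largest absolute difference where none was called, and, for the member with the largest difference, the 3 genes nearest in profile. The cell markers named, PFAS and PAICS, which complete their list, and the motifs searched were chosen after values were seen. Promoter sequences are those of RefSeq (GRCh38.p14).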

Additional observations from a re-analysis of the deposited data

Results flagged for a closer look

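A probe set outside the comparisons, 209491_s_at, had a positive difference. It is annotated to AMPD3 and to a second symbol, so it belongs to neither gene alone. It read 6.80 and 6.71 (log2) on the AICAR arrays, against 6.55 and 6.61 on the vehicle arrays. The AICAR arrays lay above the vehicle arrays, where the groups of 46.9% of all probe sets did not overlap. The difference of 0.17 did not pass in the fit of all probe sets (SE 0.0896, limma adjusted p = 0.413).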

How the results depend on the processing

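Of the counts over genes, 641 higher and 718 lower became 368 and 355 without the dim filter, 1093 and 1173 at an adjusted p under 0.1, and 1107 and 1359 with a trend and robust variances. Leaving out 1 array gave 69 to 553 higher and 30 to 432 lower, the lowest without a vehicle array. Member genes called higher numbered 2 with a trend and robust variances, and 0 to 1 with 1 array left out. Of all probe sets, 327 were higher and 485 lower, against 545 and 924 with a dim filter, 897 and 1493 at an adjusted p under 0.1, and 1441 and 2524 with a trend and robust variances; leaving out 1 array gave 0 to 1 higher and 0 lower. The AMPD3 probe set passed with a dim filter (adjusted p = 0.0393), quantile normalization (0.0465), a trend and robust variances (0.00838), the replicate block (0.0486) and a threshold of 0.1, so 1 member probe set was then called higher; 0 were called lower in any alternative run.

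Signs turned in members that were not called. With the mean of all probe sets SLC29A2 differed by 0.074 and ADA by -0.0065 (log2), and after quantile normalization the ADSL probe set 210250_x_at differed by 0.0023 and the ADA probe set 216705_s_at by 0.0054. With 1 array left out the ranges were -0.19 to 0.14 for AMPD2, -0.016 to 0.049 for ADA and its probe set 204639_at, -0.085 to 0.026 for 216705_s_at of ADA, -0.58 to 0.15 for 204120_s_at of ADK, -0.024 to 0.18 for 241778_at of NT5C2, -0.13 to 0.11 for 1553994_at of NT5E and -0.090 to 0.20 for 1560062_at of SLC29A2. For SLC29A2 itself the range was -0.20 to -0.03, and for 210250_x_at of ADSL -0.04 to -0.01. The cause was not tested. The other signs and calls of members were kept, apart from those of AMPD3 and ATIC given with their results.

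The replicate numbers do not show a pairing: same-numbered deviations correlated at r = -0.07 over 54613 probe sets. With the replicate block 577 genes were higher and 586 lower, AMPD3 passed in the gene fit (adjusted p = 0.0166) and APRT did not (0.0608).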
